A study of Mus musculus with 10 samples.

Results

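The NRF2 and glutathione defence genes described here are the transcription factor gene Nfe2l2 and 8 genes of the antioxidant and detoxification programme for which NRF2 is known, namely Nqo1, Hmox1, Gclc, Gclm, Txnrd1, Srxn1, Gpx2 and Gsta4. The genes were chosen by symbol, and every probe set annotated to only that symbol was taken, which gave 17 of the 45101 probe sets on the array and 9 of the 18194 genes. Gpx2 was on the list because it was higher with 5-AZA. Its values, and the values of all members in the 5-AZA comparison, are therefore given as a description with no test. The remaining members were tested upon differentiation and with A-C/EBP, though the whole list was made with earlier results of these data known.

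mRNA levels were measured on Affymetrix arrays in cultured primary keratinocytes of FVB mice at postnatal day P1. Undifferentiated keratinocytes were kept at 0.05 mM calcium (2 arrays) and differentiated keratinocytes at 0.4 mM calcium for 2 days (4 arrays). The other groups were differentiated in the same way, and either expressed A-C/EBP (2 arrays), a dominant negative protein that pairs with C/EBP factors and keeps them off DNA, under a tetracycline-controlled system, or received 1 µM 5-azacytidine (5-AZA, 2 arrays), an inhibitor of DNA methylation. The methods give wild type FVB newborns and mice with A-C/EBP as sources of the cells. Doxycycline was in the medium of the A-C/EBP cultures and was taken away to induce the protein. Whether the cultures without A-C/EBP carried its transgene or had received doxycycline is not stated. The study asked how promoter binding of CREB, c-Jun and C/EBPβ, alone or combined, goes with polymerase recruitment, mRNA levels and promoter methylation in keratinocyte differentiation. The same 4 differentiated arrays are the controls of both treatments and the differentiated group of the first comparison.

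NRF2, the product of Nfe2l2, is held in the cytoplasm by KEAP1, which passes it to a ubiquitin ligase. Electrophiles and oxidants modify KEAP1, and NRF2 then accumulates, pairs with small MAF proteins and binds antioxidant response elements. In the epidermis this pathway is known for protection against ultraviolet light and reactive chemicals. Its targets make glutathione (Gclc, Gclm), keep thiols reduced (Txnrd1, Srxn1), remove peroxides (Gpx2), conjugate electrophiles to glutathione (Gsta4), reduce quinones (Nqo1) and degrade haem (Hmox1). Much NRF2 regulation acts on the protein, which these arrays did not measure.

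Promoter sequence was taken from RefSeq (GRCm38.p6), whose table held start sites for 6 of the 9 members, as windows of 250 bases before to 50 bases after each start. Hmox1, Gclc and Gsta4 had no entry. The core of the antioxidant response element, TGACNNNGC, was searched on both strands and was present in 12.4% of all 32851 promoters of the table. TGANTCA, the site of AP-1 factors such as c-Jun, was in 7.81%, the CRE TGACGTCA in 1.79% and the C/EBP palindrome TTGCGCAA in 0.183%. The searches are of letters in a short window and are no measure of binding.

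The 250 bases before the start of Srxn1, Nqo1 and Gpx2 are shown because the mRNA levels of Srxn1 and Nqo1 rose together upon differentiation and Gpx2 was the member that was higher with 5-AZA. Each is written 5′ to 3′ on the strand of its gene, at chr2:152105274-152105523 (plus strand), chr8:107403206-107403455 (minus strand) and chr12:76795555-76795804 (minus strand). Capitals mark motif matches.
Srxn1: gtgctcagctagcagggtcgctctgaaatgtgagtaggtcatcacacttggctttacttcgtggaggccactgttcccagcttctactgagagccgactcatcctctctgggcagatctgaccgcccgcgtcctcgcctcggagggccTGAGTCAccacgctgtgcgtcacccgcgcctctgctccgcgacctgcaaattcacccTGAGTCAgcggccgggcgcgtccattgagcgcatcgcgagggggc
Nqo1: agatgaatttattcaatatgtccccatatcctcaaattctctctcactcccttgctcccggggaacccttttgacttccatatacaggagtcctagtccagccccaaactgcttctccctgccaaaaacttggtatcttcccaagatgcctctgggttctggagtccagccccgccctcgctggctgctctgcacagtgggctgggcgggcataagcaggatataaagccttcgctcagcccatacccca
Gpx2: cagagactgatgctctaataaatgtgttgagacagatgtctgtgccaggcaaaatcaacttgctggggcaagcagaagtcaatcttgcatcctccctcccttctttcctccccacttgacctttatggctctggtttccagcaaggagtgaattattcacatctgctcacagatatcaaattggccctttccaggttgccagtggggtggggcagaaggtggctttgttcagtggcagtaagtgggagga
The capitals of Srxn1 are TGANTCA matches whose first bases lie 102 and 45 bases before the start. Neither of these motifs nor the CRE or the C/EBP palindrome was found in the windows of Nqo1 and Gpx2. The windows also differed in CpG dinucleotides, the sites of DNA methylation. The Gpx2 window held 0 of them, as did 5.43% of promoters, the Nqo1 window held 5 and the Srxn1 window 26, beside a median of 7 over all promoters.

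Matches to the antioxidant response element core were found at 4 start sites, and each is shown in capitals with its flanks on the strand of the gene. They mark the members whose windows hold this core. Only TGACNNNGC was searched, so NRF2 sites with other letters, also any that overlap a TGANTCA match, would not be marked as such. In Nfe2l2 the match began 240 bases before the start, in Gclm 134 bases and at the second of the 3 start sites of Txnrd1 92 bases before it, and in Srxn1 it began at base 29 after the start.
Nfe2l2: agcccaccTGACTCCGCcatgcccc
Gclm: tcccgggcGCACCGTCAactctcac
Txnrd1: ggatttttGCTTTGTCAttctgaca
Srxn1: agtgggcaGCTAGGTCAgagtgaga
The Nfe2l2 match lies on the strand of the gene and the other matches on the opposite strand, where the capitals read as the reverse complement.

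Array values are log2 mRNA levels made by RMA, 1 per probe set, and a difference of 1 is a doubling. Array medians lay between 4.64 and 4.78, and the correlation of replicates across genes, which are not independent points, was 0.990 to 0.996. Levels of different probe sets are not compared, since each has its own brightness. The keratinocyte markers Krt5 and Krt14 were at 12.7 to 13.9 and 11.3 to 12.1 in all arrays, but Krt1 and Krt10, keratins of suprabasal cells, did not follow the label. Krt1 was at 9.18 and 10.98 in the undifferentiated arrays and at 8.38 to 9.17 in the differentiated arrays. Krt10 was at 8.33 and 9.96 against 7.60 to 8.10. Other markers of the same list did follow the label. Ivl was higher in the differentiated arrays, at 10.72 to 11.11 against 9.72 to 10.38 in the undifferentiated arrays. Trp63 was lower, at 6.93 to 7.27 against 8.32 to 8.69, and so was Col17a1, at 9.75 to 10.65 against 12.36 to 12.57. The melanocyte list had a mean of 7.93 to 8.72 in all arrays, the fibroblast list 5.21 to 6.43, the immune list 4.87 to 5.44 and the endothelial list 3.99 to 4.19. The mean of the hybridization controls was highest in A-C/EBP replicate 2, at 10.98 against 8.58 to 10.2 on the other arrays. In every group this mean was higher in replicate 2 than in replicate 1, which was at 9.07 for A-C/EBP. In such bulk samples, fewer cells of a type and less RNA per cell cannot be told apart. Neither the labels nor the methods say that replicates were separate cultures, so p-values refer to the spread between these arrays, some or all of which may be technical.

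Upon differentiation, 4 of the 8 tested members rose, namely Nqo1, Gsta4, Hmox1 and Srxn1, and none fell. The rises ran from 1.68-fold for Srxn1 to 4.01-fold for Nqo1. Of all 18194 genes, 6.64% rose and 9.13% fell by the same test, limma with an adjusted p under 0.05. The members were chosen with earlier results of these data known, so these counts are no test of a group set in advance. Nfe2l2 and the genes of glutathione synthesis, Gclc and Gclm, did not pass, nor did Txnrd1. The calls of Nqo1, Gsta4 and Srxn1 held with each of the 10 arrays left out in turn, and that of Hmox1 did not. Over the same arrays the mean of the keratinocyte marker list (7 of 8 measured) was at 10.6 to 11.2 in undifferentiated and 9.83 to 10.2 in differentiated arrays, and its part in these changes was not tested. The median difference of the 9 members was 0.40 on the log2 scale, beside -0.01 over all genes. It is the value of Gpx2, which was not tested, and describes none of the tested members. The 4 that rose differed by 0.75 to 2.00, and the 4 that did not pass by -0.40 to -0.03. With A-C/EBP none of the 8 tested members passed, where 2.07% of all genes did (1.49% rose and 0.583% fell), and with 5-AZA Gpx2 alone among the 9 members differed by more than 0.5 from the differentiated mean.

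**Figure D1:**
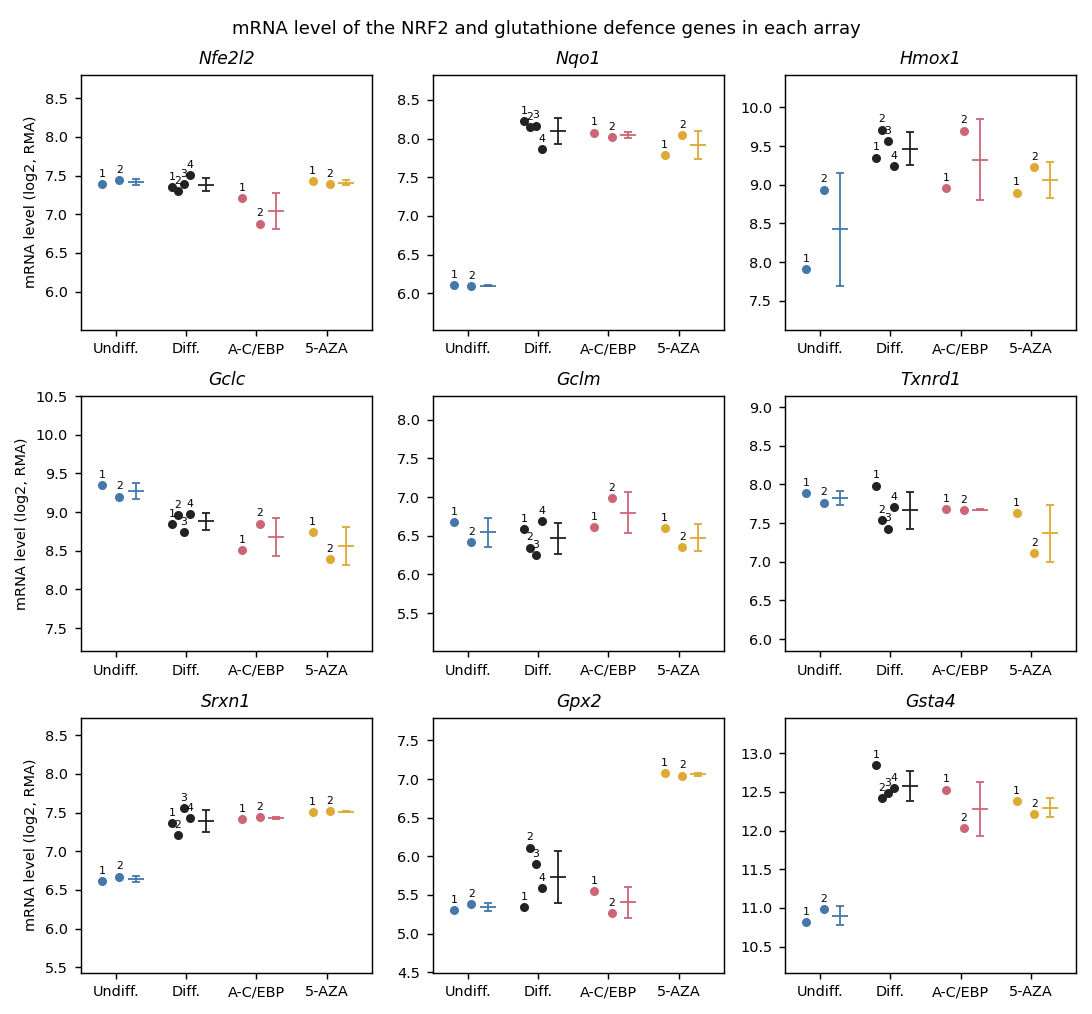
mRNA level (log2, y axis) of each of the 9 genes in every array, with points numbered by replicate and the group mean ± SD beside them, for undifferentiated (2), differentiated (4), A-C/EBP (2) and 5-AZA (2) arrays. Each panel spans the same number of log2 units around its own centre. The undifferentiated arrays lie apart from and below all others for Nqo1, Srxn1 and Gsta4, and the 5-AZA arrays lie above all others for Gpx2.

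The regulator Nfe2l2 (chr2:75675513-75704663, GRCm38.p6) did not pass the test upon differentiation. Averaged over its probe sets, it was at 7.39 and 7.44 in the undifferentiated arrays and at 7.35, 7.30, 7.39 and 7.50 in the differentiated arrays. The groups overlapped, with a difference of -0.03 (95% confidence interval -0.28 to 0.21, limma adjusted p = 0.928). This average joins a bright and a dim probe set, which differed in opposite directions, each without overlap. The bright 1416543_at was lower in the differentiated arrays by 0.25 (adjusted p = 0.327 over all probe sets), and 1457117_at, which lay between 4.20 and 4.66 and under the array median on 10 of 10 arrays, was 0.19 higher (adjusted p = 0.548).

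With A-C/EBP, Nfe2l2 was at 7.21 and 6.88, below every differentiated array, and with 5-AZA at 7.43 and 7.39, within their range. The A-C/EBP difference was -0.34 (standard error 0.11) and did not pass over all genes (limma adjusted p = 0.177). Probe set 1416543_at was at 10.50 and 10.60 in undifferentiated, 10.24, 10.27, 10.33 and 10.35 in differentiated, 9.92 and 9.56 in A-C/EBP and 10.49 and 10.25 in 5-AZA arrays. Its A-C/EBP arrays again lay below all differentiated arrays, by 0.56 (adjusted p = 0.0815 over all probe sets). For 1457117_at the A-C/EBP and differentiated arrays overlapped (difference -0.12). Without A-C/EBP replicate 2, the array with the highest hybridization controls, the gene difference was -0.18, and without replicate 1 it was -0.50. The part of single arrays in the difference was not tested.

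Nqo1 (chr8:107388225-107403205), which encodes the quinone reductase NQO1, had the largest rise of the members. Its level was 6.10 and 6.09 in undifferentiated keratinocytes and 8.23, 8.15, 8.17 and 7.86 in differentiated keratinocytes. The groups lay far apart relative to their spread, and the difference was 2.00 (standard error 0.12, limma adjusted p = 1.29e-05), a 4.01-fold rise. The level stayed high in all treated cultures, at 8.08 and 8.02 with A-C/EBP and at 7.79 and 8.04 with 5-AZA. Both treated groups overlapped the differentiated arrays. For A-C/EBP the difference was -0.06 (95% confidence interval -0.33 to 0.22, adjusted p = 0.931), so a loss of more than 0.33 lies outside the interval. For 5-AZA it was -0.19.

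Hmox1 (chr8:75093618-75100593), the inducible haem oxygenase, rose as well, but on uneven arrays. It was at 7.91 and 8.94 in undifferentiated and at 9.35, 9.71, 9.56 and 9.24 in differentiated keratinocytes. All differentiated arrays were higher, and undifferentiated replicate 1 was the lowest by far. The difference was 1.04 (standard error 0.29, limma adjusted p = 0.0327), a 2.06-fold rise. Without undifferentiated replicate 1 it was 0.53 (adjusted p = 0.366), and the call was also lost without differentiated replicate 1, 2 or 3 (adjusted p = 0.0547, 0.0736 and 0.0681). With A-C/EBP, Hmox1 was at 8.95 and 9.70, 1 array below and 1 within the differentiated range (difference -0.14, adjusted p = 0.923). With 5-AZA it was at 8.90 and 9.22, both just below the differentiated arrays, with a difference of -0.40.

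Gclc (chr9:77754535-77794489) and Gclm (chr3:122245487-122267215) encode the catalytic and the modifier subunit of glutamate-cysteine ligase, the rate-limiting enzyme of glutathione synthesis. Neither passed the test upon differentiation. Gclc was at 9.35 and 9.20 in undifferentiated and at 8.84, 8.96, 8.74 and 8.98 in differentiated keratinocytes. The differentiated arrays were all lower, by 0.40 in the mean (95% confidence interval -0.70 to -0.09, limma adjusted p = 0.0876). Both of its probe sets were lower, by 0.44 for 1424296_at and by 0.36 for 1455959_s_at. The call depended on the summary of the gene, since with the brighter probe set, 1424296_at, in place of the mean, Gclc passed (adjusted p = 0.0441).

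Gclm was at 6.68 and 6.41 in undifferentiated and at 6.59, 6.35, 6.25 and 6.69 in differentiated keratinocytes, where the groups overlapped (difference -0.08, adjusted p = 0.872). Its A-C/EBP arrays, at 6.61 and 6.99, had the highest mean of the groups, 0.33 above differentiated (limma adjusted p = 0.419). The A-C/EBP arrays of Gclc were at 8.51 and 8.85 (difference -0.20, adjusted p = 0.626), so the means of the subunits differed in opposite directions, neither past the test. With 5-AZA, Gclc was at 8.74 and 8.39, a difference of -0.31, and Gclm at 6.60 and 6.35, a difference of 0.01.

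Srxn1 (chr2:152105524-152111376), or sulfiredoxin, repairs overoxidized peroxiredoxins. It rose upon differentiation from 6.61 and 6.67 to 7.37, 7.21, 7.56 and 7.43. The groups did not overlap, and the difference of 0.75 (standard error 0.10, limma adjusted p = 0.000987) is a 1.68-fold rise. The gene mean understates 3 of its 4 probe sets. Probe set 1451680_at rose by 1.12 (adjusted p = 0.000739), 1426875_s_at by 1.01 (adjusted p = 0.00105) and 1425351_at by 0.77 (adjusted p = 0.00829), while 1419942_at was at 5.72 and 5.83 in undifferentiated and 5.75 to 5.97 in differentiated arrays. With A-C/EBP, Srxn1 was at 7.42 and 7.44 (difference 0.04, 95% confidence interval -0.19 to 0.27, adjusted p = 0.941) and with 5-AZA at 7.51 and 7.52. In both treatments the level thus stayed within the differentiated range.

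Txnrd1 (chr10:82833951-82897724), the cytosolic thioredoxin reductase, did not pass. It was at 7.89 and 7.76 in undifferentiated and at 7.99, 7.54, 7.43 and 7.71 in differentiated keratinocytes (difference -0.16, limma adjusted p = 0.693). The differentiated arrays were spread on both sides of the undifferentiated ones, and the 95% confidence interval of -0.55 to 0.23 leaves room for a modest change. With A-C/EBP it was at 7.68 and 7.67 (difference 0.01, adjusted p = 0.992), and with 5-AZA at 7.63 and 7.11 (difference -0.30). Its 3 probe sets may match several transcripts, and gave differences upon differentiation of -0.29, -0.17 and -0.03.

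**Figure D2:**
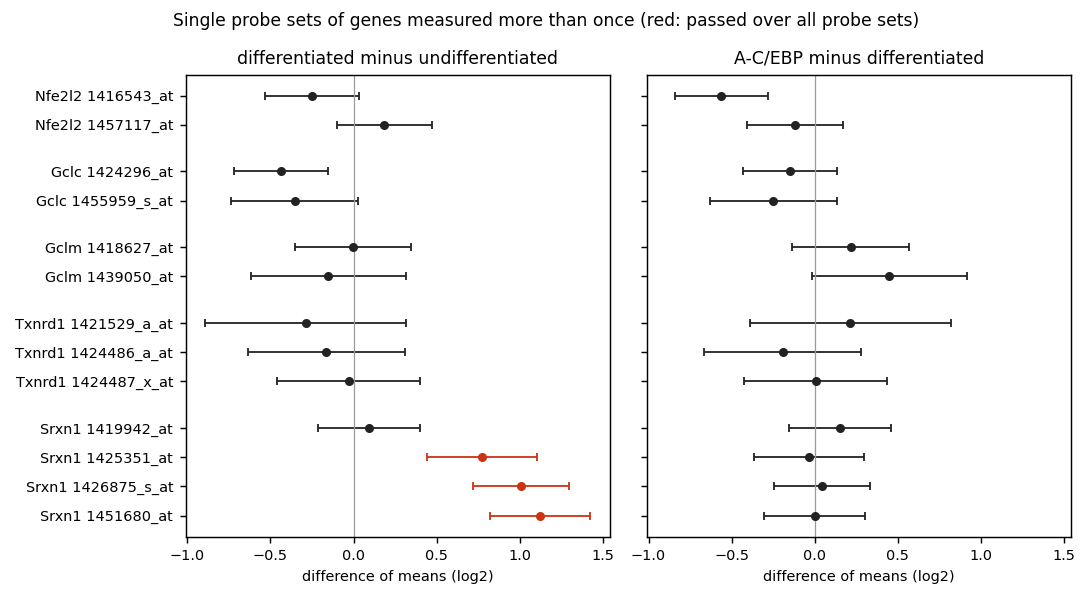
Difference of group means (log2, x axis) with its 95% confidence interval for each probe set of the 5 members measured by more than 1 probe set, upon differentiation (left) and with A-C/EBP (right). Red marks probe sets that passed limma adjusted over all probe sets. The probe sets of Srxn1 disagree upon differentiation, where 3 rose and 1419942_at was near 0, and those of Nfe2l2 differ with A-C/EBP.

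Gsta4 (chr9:78191966-78209349) encodes the glutathione transferase that conjugates 4-hydroxynonenal, an aldehyde of lipid peroxidation. It was at 10.81 and 10.98 in undifferentiated and at 12.85, 12.42, 12.49 and 12.55 in differentiated keratinocytes. The groups lay apart, and the rise was 1.68 (standard error 0.16, limma adjusted p = 0.000135), or 3.20-fold. With A-C/EBP it was at 12.53 and 12.03 (difference -0.30, adjusted p = 0.495), with replicate 2 below the differentiated range. With 5-AZA it was at 12.38 and 12.21, both below all differentiated arrays (difference -0.28), and far above the undifferentiated ones.

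Gpx2 (chr12:76792335-76795554), a glutathione peroxidase known from the gut epithelium was even between the 5-AZA arrays and uneven within the differentiated group. It was at 5.30 and 5.38 in undifferentiated, 5.34, 6.11, 5.89 and 5.59 in differentiated, 5.55 and 5.26 in A-C/EBP and 7.08 and 7.04 in 5-AZA arrays. The first 3 groups overlapped, and the 5-AZA arrays were above all others. The 5-AZA mean was 7.06 ± 0.02 (SD, 2 arrays) against 5.74 ± 0.34 (SD, 4 arrays), a difference of 1.32 or 2.50-fold. Leaving out 1 array at a time gave 1.19 to 1.45. The difference upon differentiation was 0.40 and that with A-C/EBP -0.33. The gene is measured by a single probe set, which was above the array median on 10 of 10 arrays.

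The order of the group levels differed between members. Gpx2 had the 5-AZA arrays highest and apart, and the differentiated, A-C/EBP and undifferentiated arrays overlapped their neighbours. Nqo1 and Srxn1 had the undifferentiated arrays apart and below, with the differentiated and A-C/EBP arrays overlapping. Gsta4 also had the undifferentiated arrays lowest and apart, with differentiated above 5-AZA and the A-C/EBP and 5-AZA arrays overlapping. Gclc was highest in the undifferentiated arrays, apart from the differentiated ones, and its other neighbours overlapped. Txnrd1 was also highest in the undifferentiated arrays, apart from the A-C/EBP arrays that followed. Nfe2l2 had the A-C/EBP arrays lowest and apart. In Gclm and in Hmox1 every pair of neighbours in the order overlapped.

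**Figure D3:**
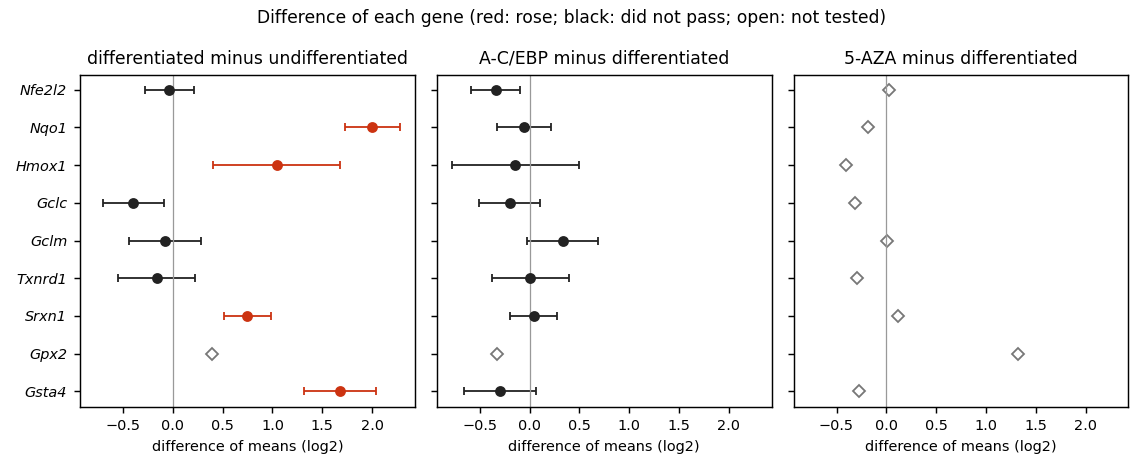
Difference of group means (log2, x axis) of each of the 9 genes in the differentiation, A-C/EBP and 5-AZA comparisons, with 95% confidence intervals where a test was made. Red marks genes that rose by limma over 18194 genes, black those that did not pass and open diamonds those given as a description. Nqo1, Hmox1, Srxn1 and Gsta4 rose upon differentiation, no tested gene passed with A-C/EBP, and Gpx2 stands alone at 1.32 with 5-AZA.

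Counted by size alone, 4 of the 9 members were more than 0.5 higher upon differentiation, where 7.23% of all genes were, and the arrays of 5 of the 9 did not overlap, 4 above and Gclc below, where 34.1% of all genes did not overlap. With A-C/EBP, 0 of the 9 differed by more than 0.5 (6.74% of all genes) and the arrays of Nfe2l2 alone did not overlap (21.4% of all genes). Their median was -0.14, beside 0.01 over all genes. At an unadjusted limma p under 0.05, Nfe2l2 was the 1 member called with A-C/EBP, where 13.6% of all genes were. Without A-C/EBP replicate 1, Nfe2l2 (-0.50), Gclm (0.52) and Gsta4 (-0.54) were past 0.5, and without A-C/EBP replicate 2 Hmox1 was (-0.51). With 5-AZA, Gpx2 was the 1 member past 0.5 (3.98% of all genes, 1.89% higher), the arrays of Gpx2, Hmox1 and Gsta4 did not overlap (16.4% of all genes) and the median was -0.19, beside 0.04 over all genes. Without 5-AZA replicate 1, Txnrd1 (-0.56) joined Gpx2 past 0.5, and without replicate 2 Hmox1 did (-0.57).

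The rest of the pathway was followed in 7 lists with the members left out, in which 107 of 118 listed genes were measured by probe sets of a single symbol. Upon differentiation 16 rose, 10 fell and 81 did not pass. The share called was 24.3%, beside 15.8% of all genes. By list it ran from 11.1% for haem and iron handling to 36.4% for peroxidases, superoxide dismutases and catalase. By direction, 6.64% of all genes rose and 9.13% fell. The share of the 107 that fell was thus close to that of all genes, and the share that rose was larger. The median difference was -0.01. Without undifferentiated replicate 1, 13 were called in place of 26.

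Of 15 regulators of NRF2 and its relatives, 4 rose upon differentiation, none fell and 11 did not pass. Nfe2l3, a relative of NRF2 of the same CNC family, rose by 1.60 (limma adjusted p = 0.000118) and Nfe2l1, another, by 1.00 (adjusted p = 0.00892). Sqstm1, whose product p62 binds KEAP1 and directs it to autophagy, rose by 0.54 (adjusted p = 0.0104). The fourth was Maff, a small MAF partner, named after its values were seen. The calls of Nfe2l1, Sqstm1 and Maff were lost without undifferentiated replicate 1, and that of Maff also without replicate 2. The 3 probe sets of Nfe2l3 ran from 0.25 to 2.34.

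Of 15 genes of glutathione synthesis and turnover, 1 rose, 2 fell and 12 did not pass upon differentiation. Glrx, a glutaredoxin that reduces protein-glutathione disulfides, rose by 1.26 (limma adjusted p = 0.0171). Glo1, which clears methylglyoxal with glutathione, fell by 0.74 (adjusted p = 0.0129), and Ggct, of the gamma-glutamyl cycle, fell by 0.47 (adjusted p = 0.0291), with its 3 probe sets from -1.26 to -0.036. The calls of Glrx and Glo1 were lost without undifferentiated replicate 1 and that of Ggct without undifferentiated replicate 2 or differentiated replicate 1 or 4.

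Among 11 peroxidases, superoxide dismutases and catalase, 3 rose, 1 fell and 7 did not pass. Gpx1, the main cytosolic glutathione peroxidase, was at 12.74 and 12.56 in undifferentiated and at 11.79, 11.81, 11.70 and 11.75 in differentiated arrays, and fell by 0.88 (limma adjusted p = 0.000197). The secreted Gpx3 rose by 0.59 (adjusted p = 0.0134), and Gpx8, of the endoplasmic reticulum, rose by 0.44 (adjusted p = 0.0138). The call of Gpx3 was lost without undifferentiated replicate 1 and that of Gpx8 without undifferentiated replicate 2. Gpx1 was thus the member of this list that fell while the other called ones rose.

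Of 21 glutathione transferases, 3 rose, 3 fell and 15 did not pass. Gstk1, of mitochondria and peroxisomes, rose by 1.40 (limma adjusted p = 0.000391), while Gstcd fell by 1.13 (adjusted p = 0.000127). Mgst2, a membrane-bound form, was at 8.57 and 8.97 in undifferentiated and at 6.72, 6.76, 7.24 and 6.85 in differentiated arrays, and fell by 1.88 (adjusted p = 0.000650). Probe sets of close relatives in this family may share transcripts, so their separate values are uncertain. The called genes of this list thus moved in both directions.

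Of 13 thioredoxin and peroxiredoxin genes, 1 rose, 3 fell and 9 did not pass. Txnrd3, a relative of Txnrd1, fell by 1.30 (limma adjusted p = 0.00138). Prdx4, the peroxiredoxin of the endoplasmic reticulum, fell by 0.41 (adjusted p = 0.0160), and the cytosolic Prdx2 rose by 0.45 (adjusted p = 0.0185). Both peroxiredoxin calls were lost without undifferentiated replicate 1, and that of Prdx2 also without replicate 2.

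Of 23 genes of NADPH supply and detoxification, 3 rose, 1 fell and 19 did not pass. The share called was 17.4%, near the 15.8% of all genes. Ptgr1, a reductase of alkenals and prostaglandins, was at 10.53 and 10.81 in undifferentiated and at 13.10, 12.63, 13.14 and 13.04 in differentiated arrays, a rise of 2.31 (limma adjusted p = 2.69e-05). Aldh3a2, the fatty aldehyde dehydrogenase, rose by 1.48 (adjusted p = 0.000337) and the export pump Abcc4 fell by 1.48 (adjusted p = 0.00140). These calls held with each of the 10 arrays left out in turn, as did those of Nfe2l3, Gpx1, Gstk1, Gstcd, Mgst2 and Txnrd3.

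Of 9 genes of haem and iron handling, beside Hmox1, 8 did not pass and 1 rose (11.1%, where 15.8% of all genes were called). It was Slc40a1, the iron exporter ferroportin, at 5.65 and 6.45 in undifferentiated and at 8.81, 8.71, 9.54 and 8.88 in differentiated arrays. The rise of 2.93 (limma adjusted p = 0.000164) was larger than that of any of the 9 members and held with each array left out.

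**Figure D4:**
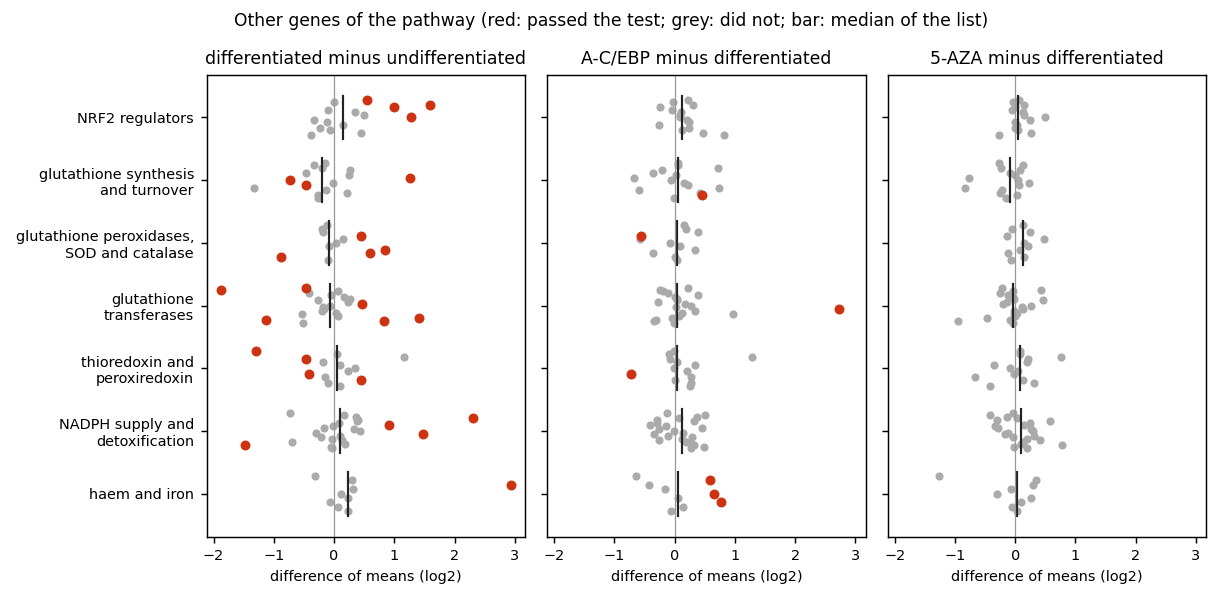
Difference of group means (log2, x axis) of the 107 other genes of the pathway, 1 point per gene in 7 lists, in the differentiation, A-C/EBP and 5-AZA comparisons. Red points passed limma over 18194 genes, grey points did not, and the black bar is the median of each list. Upon differentiation, 5 of the 7 lists hold genes that rose and genes that fell, and the NRF2 regulators and the haem and iron list hold only rises. Gstm5 stands alone at 2.73 with A-C/EBP, and no gene passed with 5-AZA.

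With A-C/EBP, 5 of the 107 rose, 2 fell and 100 did not pass, a share of 6.54% beside 2.07% of all genes, with a median of 0.08. The mean of the keratinocyte list was at 10.64 to 10.90 in the A-C/EBP arrays against 9.83 to 10.2 in the differentiated arrays, without overlap, and its part in these changes was not tested. Gstm5, a glutathione transferase of the mu class, was at 11.35 and 11.23 with A-C/EBP and at 8.70, 8.51, 8.39 and 8.65 in differentiated arrays. Its rise of 2.73 (standard error 0.12, limma adjusted p = 1.41e-05) held with each array left out, and the undifferentiated arrays, at 8.83 and 8.64, were at the differentiated level.

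In the haem and iron list 3 genes rose with A-C/EBP. Blvrb, which encodes biliverdin reductase B, rose by 0.77 (limma adjusted p = 0.0299). The ferritin heavy chain gene Fth1 rose by 0.66 (adjusted p = 0.0402) and the haem transporter gene Slc48a1 by 0.58 (adjusted p = 0.0259). Cbs, which leads homocysteine towards cysteine, rose by 0.46 (adjusted p = 0.0352). Gpx8 fell by 0.56 (adjusted p = 0.0232) and Prdx4 by 0.72 (adjusted p = 0.00731), where the 4 probe sets of Prdx4 ran from -1.48 to 0.14. These calls were fragile. Without A-C/EBP replicate 2, the array with the highest hybridization controls, all calls of this paragraph were lost and that of Gstm5 was kept. Without A-C/EBP replicate 1, 4 genes were called, of which Gstm5, Prdx4 and Blvrb were among the 7 and an NRF2 regulator was not. Without differentiated replicate 2, 4 were called, and 2 without differentiated replicate 4.

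With 5-AZA, none of the 107 passed by limma, where 0.286% of all genes did, and the median was 0.02. At an unadjusted p under 0.05, 17 were called, where 9.1% of all genes were. A t-test per gene gave 7 at that level and 0 after adjustment. With a block for the replicate number, which the labels do not describe as a pairing, 6 passed. The mean of the melanocyte list (7 of 7 measured) was at 8.62 to 8.67 in the 5-AZA arrays and at 7.93 to 8.39 in the differentiated arrays, without overlap. The fibroblast list was at 5.98 to 6.43 against 5.56 to 6.21 and the keratinocyte list at 9.58 to 9.84 against 9.83 to 10.2, both with overlap. The part of these shifts in the values of Gpx2 was not tested.

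The genes with the pattern most like each member were sought by Pearson's r over the 10 arrays among 5489 genes with an SD of at least 0.25, as a description in which the points share groups and arrays. For Gpx2 they were F2rl2 (r = 0.97), Ak7 (r = 0.94) and Rhox5 (r = 0.93). Since they were picked for a likeness to Gpx2, their high values in the 5-AZA arrays follow from the choice. For Nqo1 they were the claudin gene Cldn23, Arg1 and Rnase1 (r = 0.99, 0.99 and 0.98) and for Srxn1 Myo5b, Sec14l2 and Plbd1 (all r = 0.99). Gsta4 went with Krt7, Ahr and Atp2c2 (all r = 0.98), where Ahr encodes the aryl hydrocarbon receptor.

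For the remaining members r was 0.91 to 0.96. Nfe2l2 was nearest to Slc10a6, Krtdap and Lgals7 (r = 0.95, 0.94 and 0.93), of which Krtdap and Lgals7 are genes of stratified epithelium. Hmox1 was nearest to Fcho2, Slc15a1 and Lgalsl (r = 0.95, 0.94 and 0.91), Gclc to Alyref, Snrpf and Nol10 (r = 0.96, 0.94 and 0.94), Gclm to Lrp6, Rhbdf1 and Ahsa2 (r = 0.92, 0.91 and 0.91) and Txnrd1 to Nln, Hsph1 and Slc25a24 (r = 0.96, 0.94 and 0.93). No 2 of the 9 members shared a gene among their nearest 3.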

How the data were processed

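The study hybridized keratinocyte total RNA to 10 Affymetrix mouse arrays. The deposited log2 values come, per the labels' processing notes, from Affymetrix Expression Console, in which the authors ran RMA. Versions are not given in the sources used here. The values entered the fits as deposited. RMA normalizes the arrays to each other, so a shift shared by most genes would not be seen. Of 45101 probe sets, 34958 carried 1 gene symbol, 932 several and 9211 none in the platform annotation, and those with 1 symbol were averaged per gene (18194 genes). limma 3.58.1 in R 4.3.3 fitted all 10 arrays with a mean per group (6 residual degrees of freedom, two-sided), with Benjamini-Hochberg adjustment over all genes and calls at an adjusted p under 0.05. The fit was tested on simulated data. The members and lists were chosen with earlier results of these data known. Named genes were the 9 members, of each pathway list up to 3 called genes with the smallest adjusted p per comparison, and for each member the 3 genes of highest r. Exceptions are marked.

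As alternatives, arrays were centred on the median or quantile normalized. Genes were represented by their brightest probe set or without probe sets that may match several transcripts. The dimmest 40% of genes were left out, or an intensity trend, a replicate block or only the compared groups were used. A minimum difference, a t-test per gene and the omission of each array were also tried. The study set mRNA changes by a threshold of 0.5 log2. Its methods name a t-test for comparing samples, but no test for calling single genes. One label gives both A-C/EBP arrays the number 2, and the numbers in the titles were used. The number of arrays limits the precision.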

Additional observations from a re-analysis of the deposited data

How the results depend on the processing

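The calls of Nqo1, Gsta4 and Srxn1 upon differentiation kept their direction and stayed past the threshold under each limma alternative, with adjusted p up to 0.0171. For the t-test per gene, only counts were made. The count of members called upon differentiation was 4, and 3 to 4 with single differentiated arrays left out. It was up to 5 under the other alternatives and 2 by the t-test per gene after Benjamini-Hochberg adjustment. With A-C/EBP it was 0, and 1 by that test unadjusted. Gclc passed upon differentiation without probe sets that may match several transcripts (adjusted p = 0.0383) and with only the compared groups in the fit (adjusted p = 0.0460). Txnrd1 had no value without such probe sets. Differences near 0 changed sign. Upon differentiation Gclm was 0.053 without undifferentiated replicate 1 (-0.21 to 0.053 with single arrays left out). With A-C/EBP, Hmox1 was 0.23 without A-C/EBP replicate 1 (-0.51 to 0.23), Txnrd1 was -0.021 with median centring and -0.044 with quantile normalization (-0.071 to 0.11) and Srxn1 was -0.010 with quantile normalization (-0.021 to 0.095). The causes were not tested.

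Of the other pathway genes, 26 were called upon differentiation, 13 to 27 with single arrays left out, 18 without probe sets that may match several transcripts, 37 by the methods' t-test and 7 after its adjustment. With A-C/EBP 7 were called, and fewer with any single array left out. There were 4 without probe sets that may match several transcripts and 3 with only the compared groups. The t-test per gene gave 17, and 0 after its adjustment. With 5-AZA 0 were called, and 7 by the t-test per gene unadjusted. The 4 differentiated arrays and groups of 2 limit what these counts can show.

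The labels do not say that replicate numbers pair the samples, and a block used the 2 numbers that the groups share. Deviations of same-numbered arrays correlated at 0.422 and 0.310 between undifferentiated and differentiated, 0.258 and 0.404 for A-C/EBP, and 0.430 and 0.0932 for 5-AZA. There, 5-AZA replicate 1 was closer to differentiated replicate 4 (0.448) and 5-AZA replicate 2 to differentiated replicate 3 (0.563). In a group of 2 the deviations of the arrays mirror each other, so these values are not independent. With the replicate block, 6 pathway genes were called for 5-AZA and 12 for A-C/EBP, and of all genes 398 in place of 52 and 773 in place of 377. With A-C/EBP, Txnrd1 was -0.090 under the block, a change of sign only, and the block changed no call of a member.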
